A study of Homo sapiens with 2 samples.

Results

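KLK2, KLK3 and KLK4 are the androgen-driven kallikrein genes of the prostate, and all 3 were present by symbol among the 12075 protein-coding genes of the deposited expression table. Their levels were compared between 2 RNA-seq libraries of LNCaP, a prostate cancer line that was derived from a metastatic lymph node and that responds to androgen. The first, called nc here, was from cells treated with CM from nc-YY1 M2 macrophages, and the other, called oe, from cells treated with CM from oe-YY1 M2 macrophages. Both libraries carried the genotype label WT and the time label day 0, and the treatment labels add the word cocultured and leave it unclear if macrophages shared the dish. A protocol for adipogenic differentiation also stands in the labels, and how it bears on LNCaP is not stated. The abbreviations nc, oe and CM are not expanded in the labels. YY1 is a zinc finger transcription factor, and the series asks how its level in tumor-associated macrophages bears on prostate cancer cells. There was 1 library per group, so no value below has a replicate check, a p-value or an error, and every difference is one between these 2 libraries.

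Tissue kallikreins are secreted serine proteases encoded side by side on chromosome 19. KLK3 encodes prostate-specific antigen, a chymotrypsin-like protease that liquefies semen by cutting semenogelins and that is measured in blood to follow prostate cancer. KLK2 encodes a closely related trypsin-like protease, and KLK4 a trypsin-like protease that is also known for its part in the maturation of tooth enamel. In luminal prostate cells androgen induces KLK2 and KLK3 through response elements in their promoters and enhancers, which makes their mRNAs common readouts of androgen signalling.

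The promoters of KLK3 and KLK2 are shown because the letters of an androgen response element stand in both, and that of KLK4 because they do not. The sequences are from RefSeq (GRCh38.p14) and cover the 250 bases before a start annotated there, on the strand of the gene. KLK3 lies at chr19:50854665-50854914 on the plus strand, KLK2 at chr19:50873189-50873438 on the plus strand, and KLK4 at chr19:50910739-50910988 on the minus strand. For KLK2 that start lies 190 bases from the 5′ end of the principal transcript in GENCODE 29, with the direction not recorded. It is thus not known here if the element lies before that 5′ end. The window falls inside the KLK2 gene as GENCODE 29 draws it, which begins further upstream. Capitals mark the 15 bases of the element.
KLK3: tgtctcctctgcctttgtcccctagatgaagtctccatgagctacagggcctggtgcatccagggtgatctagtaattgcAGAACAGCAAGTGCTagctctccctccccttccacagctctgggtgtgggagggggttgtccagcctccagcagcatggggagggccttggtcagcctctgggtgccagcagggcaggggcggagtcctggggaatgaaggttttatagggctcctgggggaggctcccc
KLK2: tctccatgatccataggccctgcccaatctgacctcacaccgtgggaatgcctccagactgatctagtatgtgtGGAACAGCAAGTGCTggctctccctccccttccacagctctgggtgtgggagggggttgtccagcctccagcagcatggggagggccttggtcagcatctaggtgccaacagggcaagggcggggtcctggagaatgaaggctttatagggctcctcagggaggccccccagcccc
KLK4: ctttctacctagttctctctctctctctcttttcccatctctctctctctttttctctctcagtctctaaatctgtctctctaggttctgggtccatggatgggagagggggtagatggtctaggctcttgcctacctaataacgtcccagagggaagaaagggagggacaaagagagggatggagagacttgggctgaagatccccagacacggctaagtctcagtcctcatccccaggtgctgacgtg

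The first base of the element stood 170 bases before the RefSeq start of KLK3 and 176 bases before that of KLK2. Counted from 1 at the 5′ end of the element, KLK2 differed from KLK3 by the single substitution A1G. The 14 bases they share, GAACAGCAAGTGCT, were found on either strand in 2 of 35116 promoter windows of 300 bases (0.0057%), those of KLK2 and KLK3. The letters were taken from these promoters, so that share is a description. The looser pattern GAACANNNAGTGCT, which contains the shared letters, was found in 15 windows (0.0427%), and the 6 bases AGAACA, which begin the element of KLK3, in 5192 (14.8%). These 6 bases followed after a gap of 3 by their reverse complement, the full palindrome, were found in 1 window and in none of the 3 genes. None of these patterns was found in either of the annotated promoter windows of KLK4 or of KLK15. Aligned over their 300-base windows, the KLK3 and KLK2 promoters were identical at 84.2% of 291 aligned bases, against 53.3% for KLK3 and KLK4.

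All 3 kallikreins were lower in oe. KLK3 (ENSG00000142515.14_3, chromosome 19, 51358171 to 51364020, plus strand) measured 358 FPKM in nc and 77.6 FPKM in oe, where FPKM is the count of sequenced fragments scaled by transcript length and by library size. Its FPKM was 4.61-fold lower, and 21.7% of the nc level was left. KLK2 (ENSG00000167751.12_2, chromosome 19, 51364824 to 51383823, plus strand) stood at 93.4 and 12.7 FPKM (nc and oe), 7.35-fold lower, with 13.6% of the nc level left. KLK4 (ENSG00000167749.11_2, chromosome 19, 51409608 to 51413994, minus strand) stood at 92.4 and 34.0 FPKM, 2.72-fold lower, with 36.8% left. These positions are those of the deposited table, whose build appears from its identifiers to be GRCh37, and differ from those of the promoter sequences above. The genes thus ranked KLK2, KLK3 and KLK4 from the largest to the smallest relative difference.

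**Figure D1:**
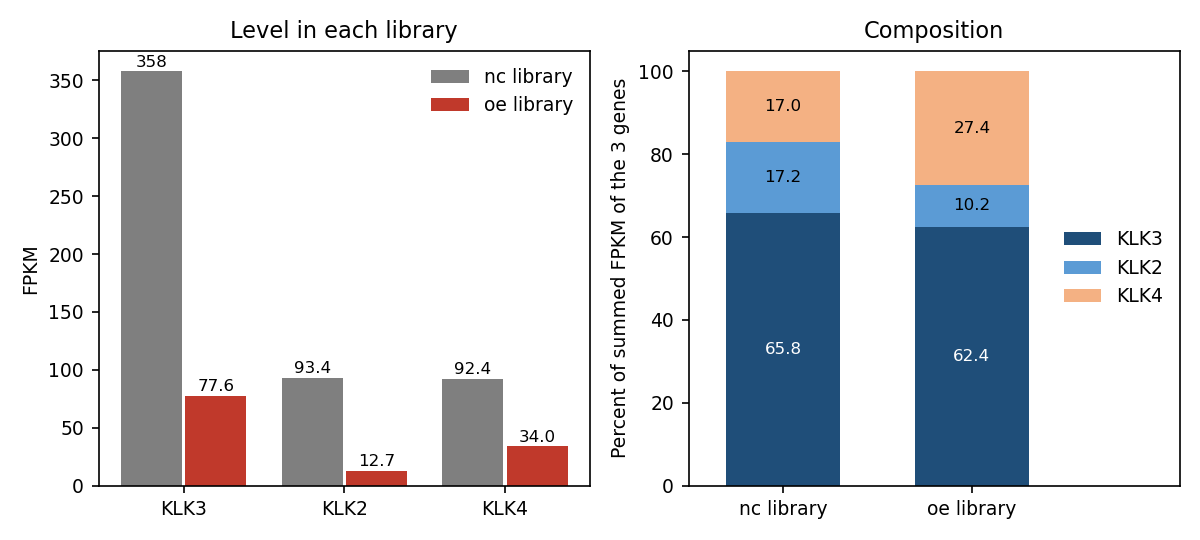
FPKM of KLK3, KLK2 and KLK4 in nc (grey) and oe (red) (left, 1 library per bar) and the percent of their summed FPKM that each gene held (right). KLK2 and KLK4 stood at 93.4 and 92.4 FPKM in nc and at 12.7 and 34.0 FPKM in oe, so the share of KLK4 was larger in oe and that of KLK2 smaller.

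The balance among the kallikreins differed between the libraries. KLK2 and KLK4 stood at nearly the same FPKM in nc, with a KLK4 to KLK2 ratio of 0.990, while in oe that ratio was 2.68. KLK3 stood at 3.83 times the FPKM of KLK2 in nc and at 6.11 times in oe. Against KLK4 the ratio of KLK3 went the other way, from 3.87 in nc to 2.28 in oe. KLK3 was the most abundant in both, with 65.8% of the summed FPKM of the 3 genes in nc and 62.4% in oe. The share of KLK4 was 17.0% and 27.4%, and that of KLK2 was 17.2% and 10.2%. Summed, the 3 genes stood at 544 and 124 FPKM, which was 0.251% and 0.0626% of the FPKM of all listed genes.

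Log2 ratios were taken as the oe value of log2(FPKM + 1) less the nc value, which makes differences of weakly expressed genes look smaller than they are. Genes that differed by 2-fold or more on this scale were called higher or lower in oe, among the 11126 whose larger value was 1 FPKM or more. The log2 ratio was -2.78 for KLK2, -2.19 for KLK3 and -1.42 for KLK4. The authors' deposited table of genes lower in oe gave the same log2 fold changes, with p-values and q-values of 1 for each of them. All 3 members were called lower, beside 5.83% of all genes called lower and 6.46% called higher. The median log2 ratio of all genes was -0.01, and the middle 90% lay between -1.08 and 1.17. Counted from the lowest log2 ratio, KLK2 ranked 21, KLK3 ranked 92 and KLK4 ranked 311.

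The kallikreins were also set among the 736 genes of at least 50 FPKM in nc, of which 10.2% were called lower and 0.543% higher. A set chosen by its nc value favours genes that are lower in oe, so these shares are in part fixed by the choice. Among the 691 genes whose mean over both libraries was 50 FPKM or more, a set added after the data were seen, 6.08% were called lower and 5.79% higher (median log2 ratio -0.32). Counted from the lowest log2 ratio, KLK2, KLK3 and KLK4 ranked 5, 15 and 35 in the set chosen by nc and 2, 8 and 21 in the set chosen by the mean. By level, KLK3 ranked 56 of all listed genes in nc and 360 in oe. KLK2 ranked 327 and 3086, and KLK4 ranked 332 and 1027. The difference of 280.1 FPKM in KLK3 was the 5th largest decrease of any listed gene, after the mitochondrially encoded MT-CO3, MT-CO2, MT-ATP8 and MT-CO1.

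**Figure D2:**
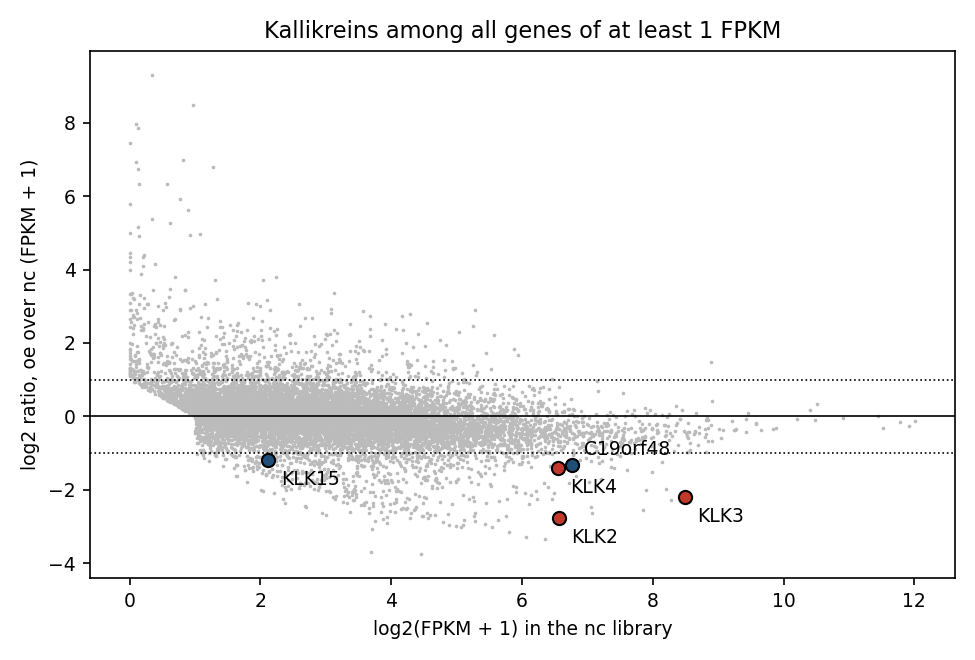
Log2 ratio of oe over nc against log2(FPKM + 1) in nc for the 11126 genes whose larger value was 1 FPKM or more, with KLK2, KLK3 and KLK4 in red, KLK15 and C19orf48 in blue and dotted lines at a 2-fold difference. KLK2 and KLK3 lie at -2.78 and -2.19, near the lower edge of genes of their level, and KLK4 at -1.42.

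KLK2 and KLK3 are close paralogs, and reads may be divided between them. In GENCODE 29 the coding sequences of their principal transcripts were both 783 bases long and identical at 85.3% of bases, while those of KLK3 and KLK4 were identical at 64.6% of 694 aligned bases. Of 1414 stretches of 50 bases in the KLK3 transcript, 11 (0.778%) also occurred in a KLK2 transcript, and of 1364 stretches of 100 bases 0 did. No stretch of 25 bases was shared between KLK4 and either of the others. No read length is stated in the labels. The summed FPKM of KLK2 and KLK3 was 451 and 90.3 (nc and oe), 5.00-fold lower. The deposited KLK2 gene begins 803 bases past the end of KLK3 on the same strand, and no other listed gene overlaps any of the 3.

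The listed genes next to KLK3, on the side away from KLK4, were lower as well. From C19orf48 to KLK4, a span of 113 kb, 5 genes were listed and all 5 were called lower. The ends of this span are genes called lower and 3 of the 5 are the members, so the count is in part fixed. Over all genes 5.83% were called lower. C19orf48, a host gene of small nucleolar RNAs, stood at 108 FPKM in nc and 42.3 FPKM in oe (log2 ratio -1.33). KLK15, the kallikrein next to KLK3, stood at 3.34 and 0.891 FPKM (-1.20), and since it passed the filter through nc alone it had to be lower. Here and below, passing through 1 library alone fixes the direction only, as a call also needs a 2-fold difference. On the other side the nearest listed gene, KLK14, lay 166757 bases past KLK4 and was under the limit of 1 FPKM, at 0.404 and 0.566 FPKM. No measured gene past KLK4 and reaching within 500 kb of KLK3 was called lower. Of these, CTU1 stood at 5.82 and 4.34 FPKM (-0.35) and VSIG10L at 8.74 and 8.13 FPKM (-0.09). ETFB had the lowest log2 ratio of them, at 27.02 and 15.02 FPKM (-0.81). CTU1, VSIG10L and ETFB were named after their values were seen. KLK15 and KLK14 were the only listed kallikreins outside the 3 members, and the other 10 of the family were not analysed here.

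Beyond that stretch the differences were smaller, and POLD1 was the only measured gene there called lower. The counts that follow take in C19orf48 and KLK15 of that stretch and leave out KLK2, KLK3 and KLK4. Of 11 measured genes reaching within 500 kb of KLK3, 3 were called lower and 0 higher, with the median log2 ratio at -0.45. The third of them beside C19orf48 and KLK15 was POLD1, the catalytic subunit of DNA polymerase delta, at 10.0 and 4.24 FPKM (-1.07). POLD1 was within 2-fold (-0.97) with the libraries scaled to the same FPKM sum. All 11 had a log2 ratio below 0. Over all genes 50.8% did, and 5.83% were called lower.

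**Figure D3:**
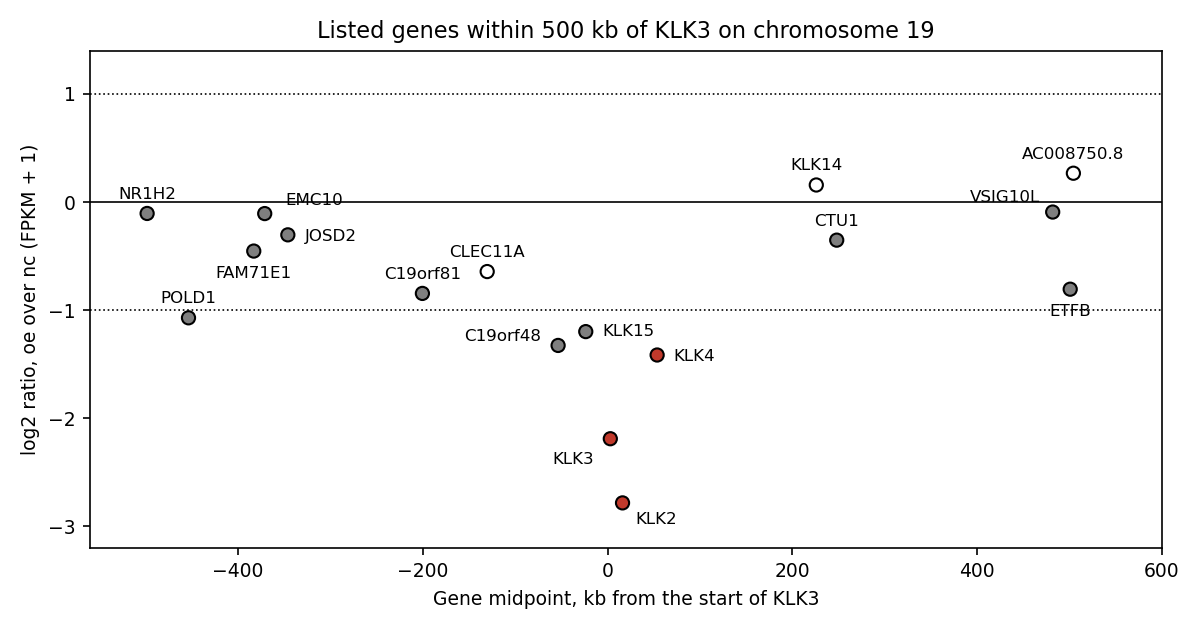
Log2 ratio of oe over nc for each listed gene that reaches within 500 kb of KLK3, placed by its midpoint in kb from the start of KLK3, with KLK2, KLK3 and KLK4 in red, other genes in grey, genes under 1 FPKM in both libraries as open circles and dotted lines at a 2-fold difference. The 5 neighbouring genes from C19orf48 to KLK4 lie between -1.20 and -2.78, and the other measured genes between -0.09 and -1.07.

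Transcription factors of the prostate lineage were mostly within 2-fold, with SPDEF and HOXB13 lower. SPDEF, an ETS factor of luminal prostate cells, stood at 83.0 FPKM in nc and 21.0 FPKM in oe (log2 ratio -1.93), and HOXB13, a homeobox factor of the prostate lineage, at 85.5 and 32.9 FPKM (-1.35). FOXA1, a factor that opens chromatin at prostate enhancers, stood at 67.4 and 52.3 FPKM (-0.36), a difference of less than 2-fold. Of 20 measured members of the list of transcription factors and cofactors, 3 were called lower, 0 higher and 17 lay within 2-fold (median log2 ratio -0.06), beside 5.83% of all genes called lower. The third lower member, GATA2, at 57.0 and 27.9 FPKM (-1.005), was named after its value was seen, and it was within 2-fold (-0.89 to -0.97) under each of the scalings tried, which leaves 2 of 20 called lower. The general coactivators and corepressors of the list were among the members within 2-fold.

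Androgen-induced genes outside the kallikreins were lower in part. Of 35 measured members 12 were called lower, 1 higher and 22 lay within 2-fold (median log2 ratio -0.62), beside 5.83% of all genes called lower and 6.46% higher. MAF, a transcription factor at 2.61 and 0.593 FPKM (-1.18), passed the filter through nc alone and had to be lower. Of the 32 members at 1 FPKM or more in each library, 11 were called lower and 1 higher. The lowest was EAF2, an elongation factor partner at 37.8 and 5.22 FPKM (-2.64). SLC45A3, the prostate membrane protein prostein, stood at 68.0 and 12.1 FPKM (-2.40), and the membrane protease TMPRSS2 at 49.3 and 9.22 FPKM (-2.30). The log2 ratio of KLK2 lay below every measured member of the list, while those of KLK3 (-2.19) and KLK4 (-1.42) lay within its range. Without the pseudocount KLK2 was 7.35-fold lower and EAF2 7.24-fold. With the libraries scaled to the same FPKM sum, NDRG1, GNMT and SORD were within 2-fold and 9 members were called lower. The higher member was STEAP2, a metalloreductase at 3.39 and 17.9 FPKM (2.11).

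Other secreted proteins of the prostate did not share one direction. Of 9 measured members of that list, 5 were called higher and 2 lower (median log2 ratio 1.74), beside 6.46% and 5.83% of all genes. LTF, the iron-binding protein lactotransferrin, stood at 0.520 and 13.5 FPKM in nc and oe (3.25), and PIP, the prolactin-induced protein, at 0.860 and 8.14 FPKM (2.30). MSMB, a major protein of seminal plasma, stood at 2.27 and 11.7 FPKM (1.95), and CLU, the chaperone clusterin, at 10.5 and 41.9 FPKM (1.90). The following members were named after their values were seen. ACPP, prostatic acid phosphatase, was lower, at 2.93 and 0.636 FPKM (-1.26), as was CRISP3, at 4.90 and 0.847 FPKM (-1.68). AZGP1, a zinc-binding glycoprotein and the most abundant member, stood at 93.9 and 163 FPKM (0.79). LTF, PIP and the inhibitor SPINK1 were under 1 FPKM in nc and passed the filter through oe alone, so they had to be higher, while ACPP and CRISP3 passed through nc alone and had to be lower. The median of the list is the value of SPINK1. Of the 4 members at 1 FPKM or more in each library, 2 were called higher and 0 lower (median log2 ratio 1.35).

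Inhibitors and substrates of the kallikreins differed in both directions. SERPINA3, alpha-1-antichymotrypsin, the inhibitor that binds most prostate-specific antigen in blood, stood at 0.754 and 223 FPKM in nc and oe (6.997), and another listed gene, AL049839.2, overlaps it on the same strand. FN1, fibronectin, stood at 37.98 and 288 FPKM (2.89). IGFBP3, an insulin-like growth factor binding protein cut by prostate-specific antigen, stood at 37.1 and 211 FPKM (2.47), while the related IGFBP2 stood at 29.4 and 4.84 FPKM (-2.38). F2RL1, the protease-activated receptor that KLK2 and KLK4 can cut, stood at 7.67 and 10.99 FPKM (0.47) and was named after its value was seen. Of 11 measured members, 4 were called higher and 1 lower (median log2 ratio 0.27), beside 6.46% and 5.83% of all genes. Of the 30 genes of the list, 17 were not analysed here. SERPINA3 was under 1 FPKM in nc and had to be higher in oe, as was SPINK1. Of the 8 members at 1 FPKM or more in each library, 2 were called higher and 1 lower (median log2 ratio 0.09).

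**Figure D4:**
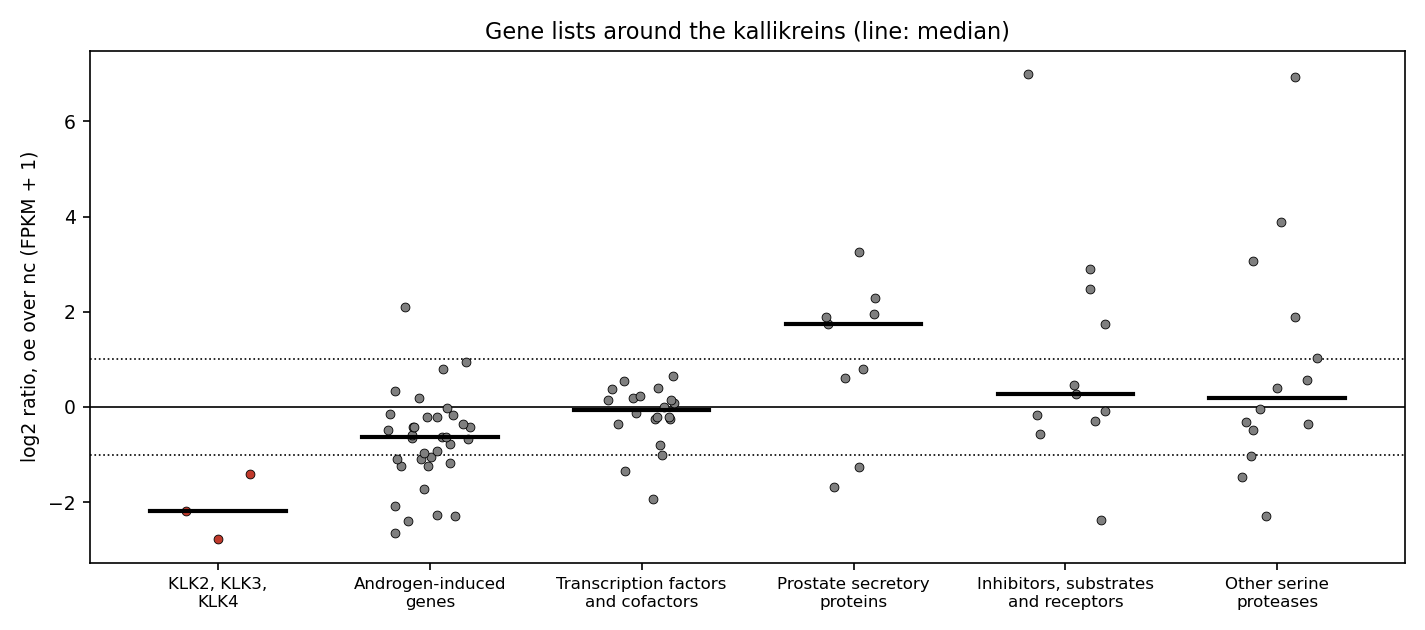
Log2 ratio of oe over nc for KLK2, KLK3 and KLK4 (red) and for the measured members of 5 gene lists (grey), 1 point per gene, with the median of each list as a line and dotted lines at a 2-fold difference. The kallikreins lie between -1.42 and -2.78, while the medians of the lists lie between -0.62 for androgen-induced genes and 1.74 for prostate secretory proteins.

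Epithelial markers were set beside the kallikreins to describe the cells in each library. KRT8, a keratin of luminal cells, stood at 39.2 FPKM in nc and 38.1 FPKM in oe, and its partner KRT18 at 84.2 and 65.6 FPKM. The epithelial adhesion protein EPCAM stood at 44.9 and 43.1 FPKM. These 3 genes were named after their values were seen. Of 12 luminal prostate markers, all measured, 5 were called lower and 1 higher (median log2 ratio -0.41), beside 5.83% and 6.46% of all genes. KRT19, another keratin of the list, was among the lower ones, at 9.62 and 2.15 FPKM (-1.75), beside SLC45A3, TMPRSS2, HOXB13 and ACPP. In bulk RNA, fewer cells that express a gene and less RNA per cell cannot be told apart. Of 20 macrophage markers 14 were not analysed here and 6 were listed. Their summed level was 1.77 FPKM in nc and 964 FPKM in oe, where HLA-DRA at 700.0 FPKM and CD74 at 251 FPKM, genes that epithelial cells also express under cytokines, held most of it. CTSS, a lysosomal protease, stood at 0.0409 and 5.87 FPKM and ITGAM, an integrin of myeloid cells, at 0.00787 and 2.34 FPKM. All 5 measured markers were called higher, beside 6.46% of all genes. All 5 were under 1 FPKM in nc, which fixed their direction but not their calls. Their part in the kallikrein differences was not tested.

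The genes with the pattern most like each kallikrein were taken as the 3 with the nearest log2 ratio among genes within 1.5-fold of its nc level, a likeness over 2 libraries only. For KLK3, among 74 such genes, they were CKB, the brain-type creatine kinase, at 311 and 63.4 FPKM in nc and oe (log2 ratio -2.28), CKS2 (-1.99) and MPC2 (-1.51). CKB alone of the 74 had a lower log2 ratio than KLK3. For KLK2, among 356 genes, they were SPON2, a secreted matrix protein, at 91.5 and 11.5 FPKM (-2.89), DEGS1 (-2.64) and H2AFX (-2.48), and 3 of the 356 had a lower log2 ratio than KLK2. For KLK4, among 360 genes, they were HMGN2, a nucleosome-binding protein, at 69.3 and 25.7 FPKM (-1.40), HOXB13 (-1.35) and its neighbour on the chromosome C19orf48 (-1.33), and 19 had a lower log2 ratio than KLK4.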

How the data were processed

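Values were deposited as FPKM per gene and library, per the file headers, and StringTie 2.1.0 is named in the submitters' processing notes. No aligner is named in them or in the labels. Those notes name the mouse build mm10, but identifiers and coordinates are human, and 11946 of 12075 identifiers carry the suffix of GENCODE annotation mapped to GRCh37, so that build is an inference. The authors' tables gave log2 fold changes and linear fold changes (a ratio on FPKM + 1), with p-values and q-values of 1 throughout, per the file headers. Their columns of log2(FPKM + 1) were not used. The FPKM of all listed genes add up to 216207 (nc) and 198520 (oe). Read numbers are unknown, so no interval or floor is given.

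Log2 ratios used a pseudocount of 1, for genes whose larger value was 1 FPKM or more. With 1 library per group no test was possible. Ratios were computed with Python 3.11.15 and pandas 2.3.3 and checked on simulated data, and alignments were made with Biopython 1.88. Promoters came from RefSeq (GRCh38.p14, all 3 members matched) and transcripts from GENCODE 29, and no coordinates were converted between builds.

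Named genes were the members, FOXA1, HOXB13 and SPDEF, at most 4 members past 2-fold with the largest absolute log2 ratio in each of 8 gene lists, neighbours within 500 kb of KLK3 past 2-fold or next to the members, and the 3 most alike genes per member. A symbol listed more than once was taken at its highest row. The members, lists and rules were chosen with earlier results of these data known, and lists share members. Some genes of the lists are not reported here and are left out of the counts, medians and plots of lists. Alternatives were other pseudocounts, scalings and filters.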

Additional observations from a re-analysis of the deposited data

How the results depend on the processing

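An alternative was taken to move a log2 value when it shifted it by 1.5-fold or, for the kallikreins, took it across 2-fold, and to move a count when it changed it by 1.5 times. Of 76 alternative values 73 did not move and 0 changed sign among called values. Under 5 alternatives each (pseudocounts of 0.1 and 0.5 and 3 scalings), the log2 ratio ranged from -2.87 to -2.67 for KLK2, from -2.20 to -2.07 for KLK3, from -1.44 to -1.30 for KLK4 and from -2.13 to -1.997 for their summed FPKM. The scalings raised oe by at most 1.09-fold and took the median of all genes from -0.01 to at most 0.09. The count of genes called higher was 1124 with a pseudocount of 0.1 and 458 with at least 1 FPKM in both libraries, against 719. That of genes called lower ranged from 517 to 914, against 649. The median of the prostate secretory proteins was 0.70 with no filter on low values, which adds 3 genes under 1 FPKM, against 1.74. The median of the transcription factors and cofactors, which was not past 2-fold, ranged from -0.21 to 0.04. No paired analysis was possible because each group has 1 library. The unknown number of reads and the single library per group limit every value.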

Other observations

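Serine proteases of the same fold outside the kallikreins did not share one direction. Among 14 that were measured, 5 were called higher in oe, 3 lower and 6 lay within 2-fold (median log2 ratio 0.18). Over all genes 6.46% were called higher and 5.83% lower. The complement proteases CFB, C1S and C1R were among the higher members. Another complement protease, CFD, was called lower, at 4.91 FPKM in nc and 1.13 FPKM in oe (log2 ratio -1.47). Complement factor CFB stood at 0.0683 and 129.5 FPKM (nc and oe), C1S at 0.133 and 15.7 FPKM and C1R at 1.21 and 17.7 FPKM, and each of them overlaps another listed gene on the same strand. The higher members other than C1R were under 1 FPKM in nc and had to be higher in oe. Of the 9 members at 1 FPKM or more in each library, 1 was called higher and 3 lower (median log2 ratio -0.31). TMPRSS2 was the lowest, and F12, the coagulation factor at 8.34 and 3.599 FPKM, was within 2-fold under each of the 3 scalings tried. The membrane protease HPN stood at 36.1 and 35.1 FPKM, and ST14, another, at 47.2 and 70.9 FPKM. HPN, ST14, F12 and CFD were named after their values were seen.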
